A study of Mus musculus with 4 samples.

Results

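Toll-like receptors (TLRs) sense microbial molecules and signal through adaptors and kinases to the transcription factor NF-kB. The genes of this route were examined in alveolar macrophages (AM) of untreated Trem-2-/- and WT mice. Members were given as a list of 42 gene symbols that covers TLRs, co-receptors, adaptors, kinases, NF-kB subunits, feedback inhibitors and the cytokine genes *Tnf* and *Il6*. A gene counted as measured where a probe set of the array was annotated with its symbol and no other, which was so for 37 of the 42, among 19946 genes in all, each member with a single probe set. *Tlr5*, *Irak4*, *Traf3*, *Chuk* and *Nfkb1* were not analysed here.

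RNA was hybridized to 4 Affymetrix mouse gene arrays, 2 with AM of Trem-2-/- mice and 2 with AM of WT mice. AM were lavaged from the lungs of untreated mice aged 8-10 wk, and every array held RNA from pooled animals. The Trem-2-/- mice carry the deletion in all cells and had been backcrossed 10 times to C57/Blk6, whereas the WT C57/Blk6 line was purchased. Both were kept in the same animal facility, littermates are not mentioned, and genotype cannot be told apart from what else differs between the lines. Values are log2 signals after robust multi-array average (RMA) normalization, on which a difference of 1 is a doubling. Pool sizes are not stated, nor is it stated that the pools of a genotype held different animals, and p-values reflect only the scatter of these arrays, which may be technical.

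In macrophages, TLRs on the plasma membrane bind bacterial lipoproteins, lipopolysaccharide (LPS) and flagellin, and TLRs in endosomes bind nucleic acids. Most of them recruit the adaptor MyD88, which engages IRAK kinases, TRAF6 and TAK1 and in turn the IKK complex, whose action on inhibitory IkB proteins frees NF-kB to enter the nucleus. NF-kB then induces cytokine genes together with its own inhibitors, among them IkB-alpha and A20, which end the response. TREM-2 is a surface receptor that has been described as a modulator of TLR responses in macrophages, and the comparison asks whether the transcripts of the route differ in its absence.

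*Trem2* itself read 7.64 and 7.45 on the Trem-2-/- arrays and 9.58 and 9.74 on the WT arrays (limma adjusted p = 0.0009), though which exons the probe set covers is not known here, and *Tyrobp*, its signalling partner, differed by -0.02. All 10 AM markers looked up were measured and averaged 10.51 to 10.56 (Trem-2-/-) and 10.45 to 10.47 (WT), with 1 called higher and 0 lower, and 3 higher and 2 lower at an unadjusted p below 0.05. *Cd14*, *Tlr2* and *Tlr4*, taken as markers of the route, lay above the upper quartile of every array (8.13 to 8.17).

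Of the 37 members, 1 rose in Trem-2-/- AM and 0 fell at a limma adjusted p below 0.05, with p-values adjusted over 19946 genes. Over all genes tested, 0.567% were called, 0.431% as higher and 0.135% as lower. The member that rose was *Cd14*, which encodes the LPS-binding co-receptor. At an unadjusted p below 0.05, 8 members were higher and 2 lower, where 11.5% of all genes were past that threshold, 4.64% higher and 6.9% lower. Significance analysis of microarrays (SAM), the test named in the study's methods, called 2 members higher and 0 lower, where it called 0.887% and 0.0953% of all genes. Fold changes of the members ran from -0.20 to 0.56 on the log2 scale with a median of 0.10, beside a median of -0.02 over all genes, and 30 members differed by less than 0.2.

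Most of these differences were small and positive. The log2 fold change was above 0 for 29 members and below 0 for 8. Arrays of the genotypes did not overlap for 28 members, 25 higher and 3 lower, where 42.8% of all genes did not overlap, 17.4% higher and 25.4% lower. Members were bright genes, with 35 of them at a mean log2 value of at least 6. Among those 35, 23 were higher and 3 lower without overlap, beside 21.9% and 25.7% of the 10783 genes past that cutoff. The cutoff lay just above the array medians (5.84 to 5.86), whereas members averaged 9.42 to 9.55, so this background does not match them in brightness. Replicates of the members also lay closer together than those of all genes (median 0.05 beside 0.09), which makes non-overlap easier at a given difference. Members were listed with earlier results of these arrays known and may vary together, so these counts are a description and the list was not tested.

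**Figure D1:**
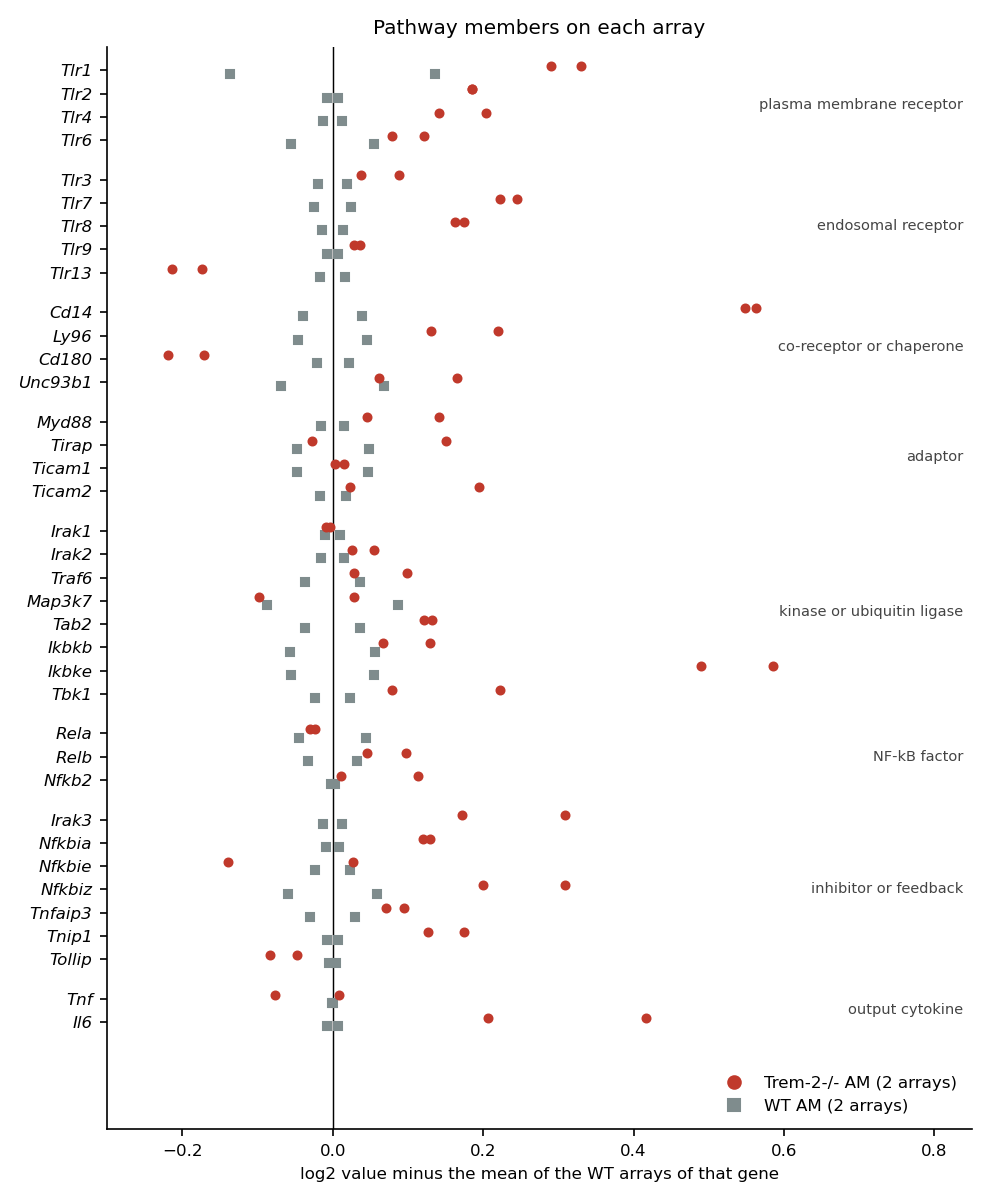
Log2 value of each of the 37 members on each array, minus the WT mean of that gene (x axis, log2 units), with genes down the page by role. Red circles are the 2 Trem-2-/- arrays and grey squares the 2 WT arrays; the circles of *Cd14* and *Ikbke* lie farthest to the right, and those of *Tlr13* and *Cd180* lie to the left of both WT squares.

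*Cd14* read 10.12 and 10.13 on the Trem-2-/- arrays, against 9.53 and 9.61 on the WT arrays. The genotypes did not overlap, and the gap between them was wider than that between replicates. The difference was 0.56 (SE 0.07, 95% CI 0.38 to 0.74, limma adjusted p = 0.0468), a signal 1.47 times that of WT. This call stood close to the threshold. It was lost when any 1 of the 4 arrays was left out (limma adjusted p = 0.149 to 0.28, difference 0.52 to 0.60), with the replicate number as a block (0.0565), after quantile normalization (0.0537) and with all rows tested as probe sets (0.28).

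CD14 is also carried by monocytes, and most of the measured markers of monocytes or interstitial macrophages moved with it. Of 11 measured markers of monocytes or interstitial macrophages, 8 rose (*Ccr2*, *Cx3cr1*, *C1qa*, *C1qb*, *C1qc*, *H2-Ab1*, *Cd74* and *Pf4*) and 0 fell, and the list averaged 7.83 to 7.84 on the Trem-2-/- arrays and 6.89 to 6.93 on the WT arrays. *Ccr2*, the chemokine receptor of inflammatory monocytes, read 7.94 and 8.04 with Trem-2-/- RNA and 7.27 and 7.09 with WT RNA. When each array was left out in turn, *C1qb*, *C1qc* and *Pf4* passed in 4 of 4 fits, *H2-Ab1* in 3, *C1qa* in 1, and *Ccr2*, *Cx3cr1* and *Cd74* in 0. The largest differences of the list were in *Pf4* (1.98), *C1qc* (1.81) and *C1qb* (1.80), the C1q genes encoding complement chains that interstitial macrophages also express. The study reports higher *C1qb* transcript in Trem-2-/- AM and, by flow cytometry, more C1q protein inside them. It also reports lower *C1qb* and *C1qc* transcript in a macrophage line made to over-express TREM-2. In its Trem-2-/- AM, an inhibitor of the nuclear receptor PPAR-delta brought *C1qb* to the WT level. Genes of this marker list may vary together, so their count is a description. The 3 markers that did not pass were *Folr2* (-0.07), *Lyve1* (-0.09) and *Cd163* (0.10).

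Of 10 neutrophil markers limma called 0 and SAM called *Csf3r*, 2 were higher at an unadjusted p below 0.05, and the list averaged 5.76 to 5.78 (Trem-2-/-) and 5.67 to 5.69 (WT). Of 10 lung epithelial markers 2 rose, *Cldn18* (difference 1.23) and *Scgb1a1* (0.91), which passed in 3 and 0 of 4 fits without 1 array. SAM called 4, with *Krt8* (0.83) and *Krt18* (0.95) added, and 6 were higher and 0 lower at an unadjusted p below 0.05. Of the 10 epithelial markers, 7 had a difference above 0 and 3 below, *Epcam* (-0.09), *Sftpb* (-0.10) and *Sftpa1* (-0.08). The list averaged 6.72 to 6.75 (Trem-2-/-) and 6.25 to 6.28 (WT). In bulk RNA, more cells of a type and more RNA per cell cannot be told apart, and the part of other cells in the level of *Cd14* was not tested.

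The other components of the LPS receptor had smaller differences. *Tlr4*, the signalling chain, read 9.69 and 9.62 in Trem-2-/- AM and 9.47 and 9.50 in WT AM. *Ly96*, which encodes the LPS-binding subunit MD-2, read 10.07 and 10.16 with the deletion and 9.99 and 9.90 without it. Neither gene overlapped between genotypes and neither passed the test (*Tlr4* 0.17, 95% CI -0.0040 to 0.35, limma adjusted p = 0.445). For *Ly96* the difference was 0.17, 95% CI -0.02 to 0.37, limma adjusted p = 0.471. Whether *Cd14* differed from them in its change was not tested.

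*Cd180* encodes RP105, a TLR-like receptor that binds the protein MD-1 and restrains TLR4 signalling. It read 10.54 and 10.59 in Trem-2-/- AM and 10.78 and 10.74 in WT AM, lower on both arrays but short of the threshold (difference -0.20, 95% CI -0.37 to -0.02, limma adjusted p = 0.395). *Ly86*, which encodes MD-1, read 10.54 and 10.65 in Trem-2-/- AM and 10.21 and 10.22 in WT AM, a difference of the opposite sign (0.38, 95% CI 0.19 to 0.56, limma adjusted p = 0.151). *Unc93b1*, whose protein carries nucleic acid-sensing TLRs to endosomes, read 11.63 and 11.52 in Trem-2-/- AM and 11.39 and 11.53 in WT AM, and its arrays overlapped.

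TLR2 pairs with TLR1 or TLR6 and detects lipoproteins of bacteria such as pneumococci. *Tlr2* read 12.32 and 12.32 in Trem-2-/- AM and 12.13 and 12.15 in WT AM (difference 0.19, 95% CI 0.01 to 0.36, limma adjusted p = 0.402). *Tlr1* read 5.77 and 5.73 in Trem-2-/- AM and 5.58 and 5.31 in WT AM, the WT arrays being the farther apart (difference 0.31, 95% CI 0.05 to 0.57, limma adjusted p = 0.355). All 4 values of *Tlr1* were under the median of their arrays (5.84 to 5.86). *Tlr6* read 8.86 and 8.90 in Trem-2-/- AM and 8.83 and 8.72 in WT AM (difference 0.10, 95% CI -0.09 to 0.29, limma adjusted p = 0.68). All of them were higher on both Trem-2-/- arrays than on either WT array, and none passed.

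The receptors of nucleic acids differed in sign. *Tlr7*, which senses single-stranded RNA, read 10.18 and 10.20 in Trem-2-/- AM and 9.98 and 9.93 in WT AM (difference 0.23, 95% CI 0.06 to 0.41, limma adjusted p = 0.32). *Tlr8* read 11.55 and 11.56 in Trem-2-/- AM and 11.40 and 11.38 in WT AM (difference 0.17, 95% CI -0.0033 to 0.34, limma adjusted p = 0.443). *Tlr13*, a mouse receptor of bacterial ribosomal RNA, read 11.05 and 11.01 in Trem-2-/- AM and 11.24 and 11.21 in WT AM (difference -0.19, 95% CI -0.37 to -0.02, limma adjusted p = 0.395). Thus *Tlr7* and *Tlr8* were higher and *Tlr13* lower on both arrays, and all 3 lie on the X chromosome; mice were matched for sex, and which sex was used is not stated. *Tlr3*, the receptor of double-stranded RNA, differed by 0.06, and *Tlr9*, that of unmethylated CpG DNA, by 0.03.

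None of the 4 adaptor genes passed. *Myd88*, the adaptor shared by most TLRs, read 10.75 and 10.65 in Trem-2-/- AM and 10.59 and 10.62 in WT AM (difference 0.09, 95% CI -0.09 to 0.28, limma adjusted p = 0.696). *Ticam1*, which encodes the TRIF adaptor of TLR3 and TLR4, read 7.55 and 7.56 in Trem-2-/- AM and 7.50 and 7.60 in WT AM, the Trem-2-/- arrays lying between the WT arrays. *Tirap* and *Ticam2*, which encode bridging adaptors, differed by 0.06 and 0.11 (limma adjusted p = 0.843 and 0.688).

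Among the 8 measured kinases and ubiquitin ligases, *Ikbke* had the largest difference. It encodes IKK-epsilon, which with TBK1 phosphorylates interferon regulatory factors downstream of TRIF and is itself inducible by NF-kB. *Ikbke* read 10.09 and 10.00 in Trem-2-/- AM and 9.56 and 9.45 in WT AM, without overlap. Its difference of 0.54 (SE 0.08, 95% CI 0.34 to 0.74) was close in size to that of *Cd14* and missed the threshold (limma adjusted p = 0.07). It was the other member that SAM called, and it passed among genes with a mean log2 value of at least 6 (limma adjusted p = 0.00962). Without any 1 array its adjusted p was 0.166 to 0.324 by limma.

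The remaining signalling enzymes were nearer 0. *Tbk1* read 9.90 and 10.05 in Trem-2-/- AM and 9.85 and 9.80 in WT AM (difference 0.15, 95% CI -0.05 to 0.35, limma adjusted p = 0.554). *Irak1*, the kinase recruited to MyD88, read 9.74 and 9.75 in Trem-2-/- AM and 9.76 and 9.74 in WT AM (difference -0.01, 95% CI -0.18 to 0.16, limma adjusted p = 0.984). *Irak2* (difference 0.04), *Traf6* (0.06), *Map3k7*, which encodes TAK1 (-0.03), its partner *Tab2* (0.13) and *Ikbkb*, which encodes IKK-beta (0.10), had limma adjusted p of 0.574 to 0.921.

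**Figure D2:**
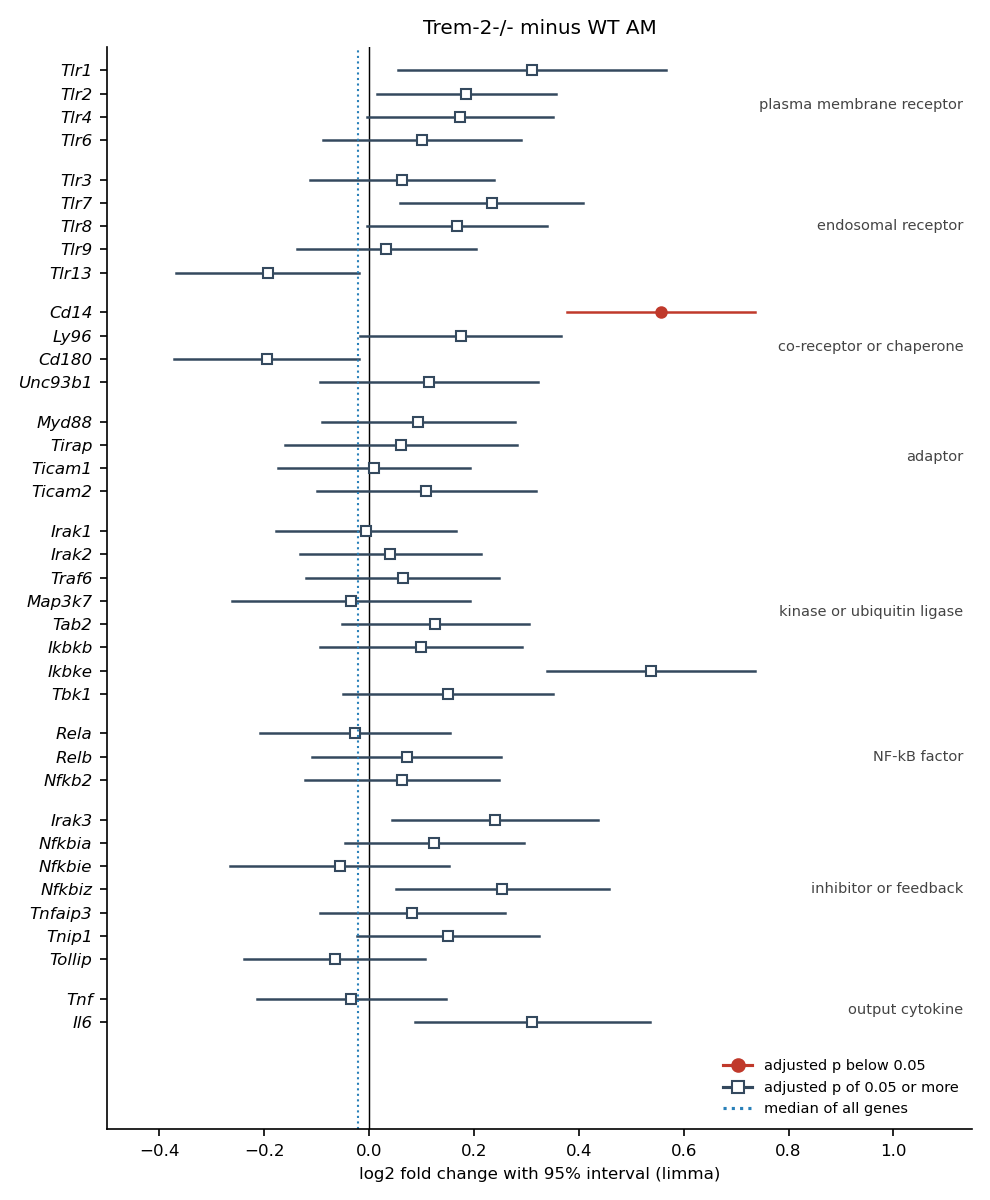
Fold change of each member on the log2 scale, Trem-2-/- over WT (x axis), estimated from 2 arrays of each genotype, with genes down the page by role. Points are estimates and bars 95% intervals from limma, the filled circle passed at an adjusted p below 0.05, open squares did not, and the dotted line is the median of all genes; *Cd14* at 0.56 and *Ikbke* at 0.54 stand to the right of the other members, which reach at most 0.31.

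The NF-kB subunit genes differed little. *Rela*, which encodes p65, read 9.37 and 9.38 in Trem-2-/- AM and 9.36 and 9.45 in WT AM (difference -0.03, 95% CI -0.21 to 0.15, limma adjusted p = 0.924). *Relb* and *Nfkb2*, the subunits of the non-canonical branch, differed by 0.07 (95% CI -0.11 to 0.25) and 0.06 (95% CI -0.12 to 0.25). The arrays measure transcript levels only, whereas NF-kB is known to be regulated largely through its inhibitors and its entry into the nucleus.

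NF-kB induces some of its own inhibitors, and none of the 7 members listed as inhibitor or feedback genes passed. *Nfkbia*, which encodes IkB-alpha, read 11.38 and 11.37 in Trem-2-/- AM and 11.26 and 11.24 in WT AM (difference 0.12, 95% CI -0.05 to 0.30, limma adjusted p = 0.566). *Tnfaip3*, which encodes the ubiquitin-editing enzyme A20, read 10.53 and 10.55 in Trem-2-/- AM and 10.43 and 10.49 in WT AM (difference 0.08, 95% CI -0.09 to 0.26, limma adjusted p = 0.719). *Tnip1*, whose protein binds A20, read 10.02 and 10.07 in Trem-2-/- AM and 9.88 and 9.90 in WT AM (difference 0.15, 95% CI -0.02 to 0.32, limma adjusted p = 0.494). In each of them the Trem-2-/- arrays lay just above the WT arrays.

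*Nfkbiz* encodes IkB-zeta, a nuclear co-activator of secondary response genes, and read 8.68 and 8.79 in Trem-2-/- AM and 8.54 and 8.42 in WT AM (difference 0.25, 95% CI 0.05 to 0.46, limma adjusted p = 0.347). *Irak3* encodes IRAK-M, an inhibitor found in macrophages, and read 10.12 and 10.25 in Trem-2-/- AM and 9.96 and 9.93 in WT AM (difference 0.24, 95% CI 0.04 to 0.44, limma adjusted p = 0.352). Both were higher without overlap and short of the threshold. *Nfkbie* (IkB-epsilon) at -0.06 and *Tollip*, an inhibitor that binds IRAK1, at -0.07 differed the other way.

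The output cytokine *Tnf* read 11.80 and 11.89 in Trem-2-/- AM and 11.88 and 11.88 in WT AM (difference -0.03, 95% CI -0.21 to 0.15, limma adjusted p = 0.898). Its Trem-2-/- arrays lay on either side of the WT arrays, and all 4 values were above the upper quartile of their arrays (8.13 to 8.17). *Il6* read 3.79 and 3.58 in Trem-2-/- AM and 3.38 and 3.37 in WT AM (difference 0.31, 95% CI 0.09 to 0.54, limma adjusted p = 0.304). All 4 values of *Il6* were under the lower quartile of their arrays (4.39 to 4.40), the only member so dim in both genotypes. *Tnf*, *Ticam1* and *Nfkbie* share chromosome 17 with *Trem2*, and differed by -0.03, 0.01 and -0.06.

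The 95% CIs, taken gene by gene, reflect only the scatter of these arrays. That scatter may be technical, so larger differences between mice are not excluded. The CIs lay within 0.5 on either side of 0 (1.41-fold) for 33 of the 37 members and within 0.75 (1.68-fold) for all 37. Replicates of the members differed by a median of 0.05 in either genotype, beside 0.09 over all genes. When limma was allowed an intensity trend in the variance with robust estimation, 6 members were higher and 2 lower, where 1.9% and 1.45% of all genes were. Those higher were *Cd14*, *Ikbke*, *Tlr2* (limma adjusted p = 0.0102 with the trend), *Tlr7* (0.0251), *Irak3* (0.0368) and *Tlr8* (0.0416), and those lower *Tlr13* (0.0286) and *Cd180* (0.0431).

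A wider list of 47 other pathway genes, 45 of them measured, held 0 genes called by limma or SAM, with 5 higher and 4 lower at an unadjusted p below 0.05. Its median log2 fold change was 0.02. The differences largest in size were in *Sarm1*, whose protein inhibits TRIF in human cells (-0.46, limma adjusted p = 0.175), *Tnip3*, which encodes an A20-binding protein (-0.43, 0.0964), *Socs3*, an inhibitor of cytokine receptor signalling (0.41, 0.35), and *Ly86*. All 4 values of *Sarm1* (4.62 to 5.25) were under the median of their arrays (5.84 to 5.86). Over the 18 inhibitor or feedback genes of this list, 8 differences were above 0 and 10 below, with a median of -0.01 and 0 called.

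A further list held 38 known NF-kB target genes, all measured, of which 5 rose and 0 fell. Over all genes 0.431% were called higher and 0.135% lower. SAM called 7 of the 38 higher and 0 lower. At an unadjusted p below 0.05, limma gave 14 higher and 1 lower, where 4.64% and 6.9% of all genes were. Of the 9 chemokine genes on the list 3 rose. *Cxcl3*, a neutrophil attractant, read 8.61 and 8.51 in Trem-2-/- AM and 7.55 and 7.63 in WT AM (difference 0.97, 95% CI 0.78 to 1.16, limma adjusted p = 0.00831). *Cxcl10*, a T cell attractant, read 7.32 and 7.47 in Trem-2-/- AM and 6.29 and 6.18 in WT AM (difference 1.16, 95% CI 0.94 to 1.37, limma adjusted p = 0.00696). *Ccl3*, a monocyte attractant, read 11.57 and 11.53 in Trem-2-/- AM and 10.95 and 10.90 in WT AM (difference 0.63, 95% CI 0.45 to 0.80, limma adjusted p = 0.0289). In each the step between genotypes was larger than the spread between replicates.

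*Ptgs2*, which encodes cyclooxygenase-2, read 7.75 and 7.78 in Trem-2-/- AM and 5.77 and 5.53 in WT AM (difference 2.12, 95% CI 1.88 to 2.36, limma adjusted p = 0.000875). *Saa3*, an acute-phase gene, read 9.77 and 9.67 in Trem-2-/- AM and 4.88 and 5.22 in WT AM (difference 4.67, 95% CI 4.37 to 4.97, limma adjusted p = 0.00029). Of the 12 cytokine genes of this list 0 passed in limma and 1 was higher at an unadjusted p below 0.05, while SAM called *Il1b*. The median log2 fold change of the whole list was 0.10, as for the members, and its upper quartile 0.37, beside 0.17 for the members. When each array was left out in turn, *Ptgs2* and *Saa3* passed in 4 of 4 fits, *Cxcl10* in 3, *Cxcl3* in 1 and *Ccl3* in 0 (limma adjusted p = 0.126 to 0.207). Several of the monocyte or interstitial and of the epithelial markers given above moved with these genes, and their part was not tested.

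**Figure D3:**
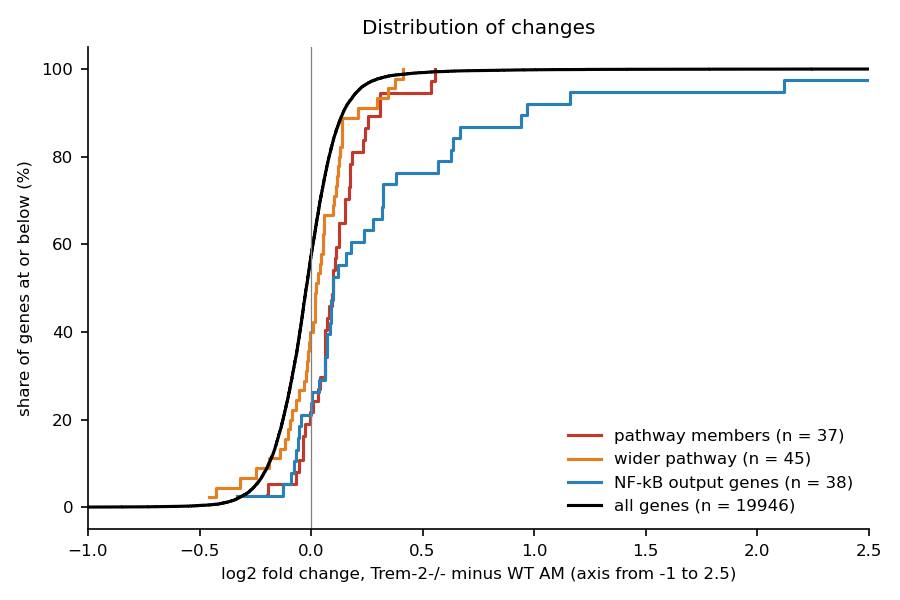
Cumulative share of genes (y axis, percent) at or below a log2 fold change of Trem-2-/- over WT AM (x axis), for 37 members, 45 genes of the wider pathway, 38 NF-kB output genes and all 19946 genes. The members run slightly to the right of all genes, with medians of 0.10 and -0.02, and the upper part of the output list extends farther right, with *Saa3* at 4.67 beyond the axis.

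Promoters of the members were searched for the kappaB consensus, the DNA element that NF-kB dimers bind, on both strands of the 250 bases before each RefSeq transcript start (build GRCm38.p6). A window was at hand for 28 of the 37 members, and 9 of the 28 (32.1%) held a match, beside 4.46% of 27025 genes. The share was 4 of 6 (66.7%) for the inhibitor or feedback genes, 11 of 27 (40.7%) for the NF-kB output list and 5 of 40 (12.5%) for the wider list. These lists hold known NF-kB targets, overlapping matches can mark 1 element, and a match is not a measured binding site. The windows shown were picked because they hold a match: 3 feedback genes, *Tlr2* and *Il6*, which did not pass the test, and *Cxcl3* and *Cxcl10*, which rose. They read 5′ to 3′ on the strand of the gene and end at the base before the start, and capitals mark the matches.
*Nfkbia* (chr12:55492648-55492897, - strand): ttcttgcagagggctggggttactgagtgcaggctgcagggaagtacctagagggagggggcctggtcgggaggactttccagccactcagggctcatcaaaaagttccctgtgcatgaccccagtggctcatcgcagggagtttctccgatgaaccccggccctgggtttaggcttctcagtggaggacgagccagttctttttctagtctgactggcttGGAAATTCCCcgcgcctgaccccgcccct
*Tnfaip3* (chr10:19015411-19015660, - strand): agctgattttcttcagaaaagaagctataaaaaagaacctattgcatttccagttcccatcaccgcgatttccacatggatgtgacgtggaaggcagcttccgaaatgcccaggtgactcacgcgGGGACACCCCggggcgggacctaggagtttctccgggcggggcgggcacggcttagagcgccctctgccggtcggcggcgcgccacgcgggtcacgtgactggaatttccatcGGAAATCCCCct
*Tnip1* (chr11:54962941-54963190, - strand): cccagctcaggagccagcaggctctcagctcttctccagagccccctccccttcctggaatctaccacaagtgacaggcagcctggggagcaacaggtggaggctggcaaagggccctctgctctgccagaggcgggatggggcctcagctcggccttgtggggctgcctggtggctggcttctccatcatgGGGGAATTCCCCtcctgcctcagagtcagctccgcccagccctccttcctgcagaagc
*Tlr2* (chr3:83841609-83841858, - strand): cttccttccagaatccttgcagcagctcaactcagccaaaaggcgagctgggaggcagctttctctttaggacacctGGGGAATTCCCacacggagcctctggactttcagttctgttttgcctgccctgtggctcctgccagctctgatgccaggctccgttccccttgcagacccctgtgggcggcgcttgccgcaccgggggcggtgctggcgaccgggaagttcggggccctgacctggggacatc
*Il6* (chr5:30012864-30013113, + strand): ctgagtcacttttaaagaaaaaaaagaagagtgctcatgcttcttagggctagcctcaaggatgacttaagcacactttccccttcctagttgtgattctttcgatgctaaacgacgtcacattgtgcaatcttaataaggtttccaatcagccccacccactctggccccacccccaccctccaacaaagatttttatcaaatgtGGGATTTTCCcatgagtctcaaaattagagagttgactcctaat
*Cxcl3* (chr5:90785851-90786100, + strand): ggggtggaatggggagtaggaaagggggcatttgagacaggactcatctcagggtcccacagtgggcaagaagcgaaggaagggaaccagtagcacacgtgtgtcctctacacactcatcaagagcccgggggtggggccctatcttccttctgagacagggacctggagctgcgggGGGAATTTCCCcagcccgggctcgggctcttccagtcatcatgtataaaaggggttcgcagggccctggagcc
*Cxcl10* (chr5:92348890-92349139, - strand): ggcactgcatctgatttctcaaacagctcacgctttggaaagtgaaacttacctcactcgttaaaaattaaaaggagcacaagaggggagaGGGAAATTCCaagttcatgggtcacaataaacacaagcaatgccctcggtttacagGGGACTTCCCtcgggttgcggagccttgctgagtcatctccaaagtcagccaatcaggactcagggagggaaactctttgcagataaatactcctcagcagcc

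The first matched base lay at -29 from the start in *Nfkbia* and at -125 and -12 in *Tnfaip3*. In *Tnip1*, 3 overlapping matches began at -58 to -56, and in *Tlr2* a pair of them at -173 and -172. In *Il6* the match began at -44. In *Cxcl3* a pair of overlapping matches began at -73 and -72, and in *Cxcl10* separate ones at -159 and -103. The 9 members with a match had log2 fold changes of -0.06 (*Nfkbie*) to 0.31 (*Il6*). None of them was called, which says little where 1 of 37 members was called at all. Of the 5 output genes that rose 2 (40.0%) held a match, near the 40.7% of the whole output list.

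**Figure D4:**
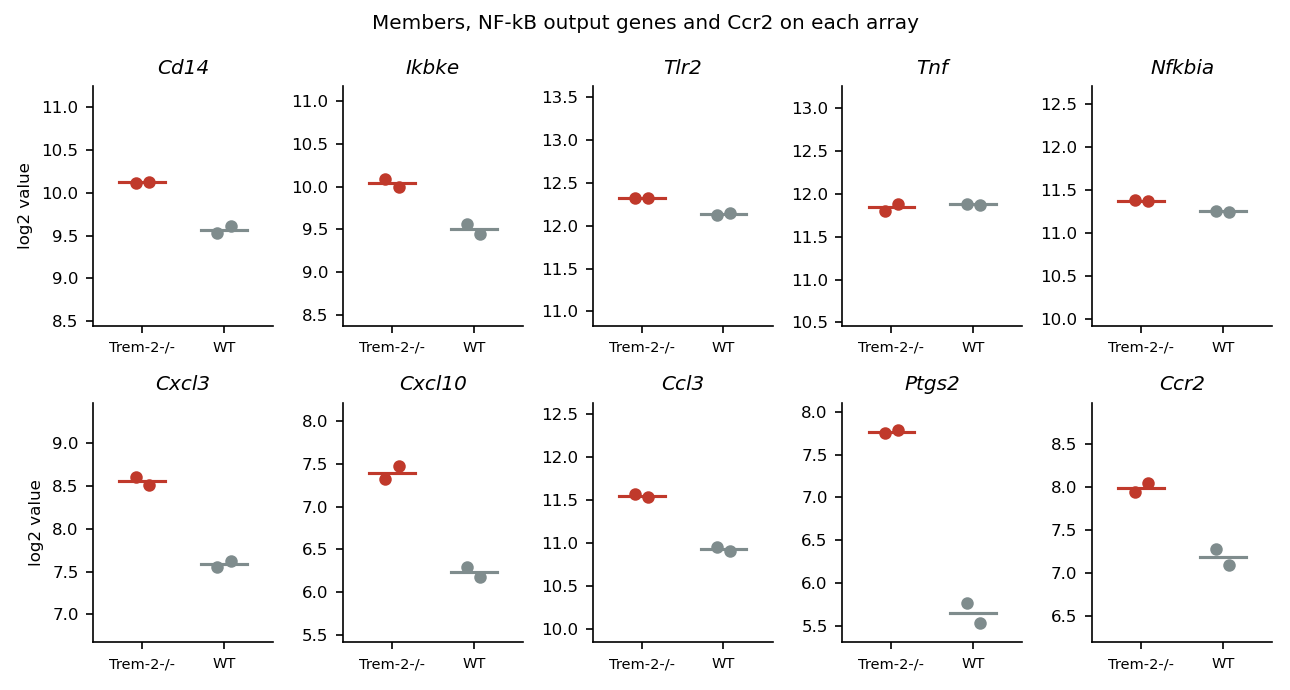
Log2 value on each array for 5 members (*Cd14*, *Ikbke*, *Tlr2*, *Tnf*, *Nfkbia*), 4 NF-kB output genes (*Cxcl3*, *Cxcl10*, *Ccl3*, *Ptgs2*) and *Ccr2*, a marker on the monocyte or interstitial list, with Trem-2-/- AM left of WT AM in each panel. Points are arrays, lines are means of 2 arrays, and every y axis spans the same number of log2 units; the step is widest for *Ptgs2* (2.12) and near 0 for *Tnf* (-0.03).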

How the data were processed

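Gene expression was measured in 2 Trem-2-/- and 2 WT samples of AM. The authors deposited log2 values normalized by RMA (background correction, normalization across arrays and summary per probe set), and the submitters' processing notes name the genome build mm9. No detection calls were used. Groups and replicate numbers were taken from the sample labels. Of 35557 probe sets, 21797 carry 1 symbol, and for each of 19946 genes the probe set with the highest mean was kept.

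Genotypes were tested with limma 3.58.1 (lmFit and eBayes; R 4.3.3). Tests were two-sided, and p-values were adjusted by Benjamini-Hochberg over all genes at a threshold of 0.05. With 2 arrays in each genotype an exact permutation p for 1 gene is at least 0.333. SAM was reimplemented at a false-discovery rate of 5% over the 6 assignments of arrays. The fit was tested on simulated data, whose model of the spread was revised until changed genes were recovered. The 13 alternatives were SAM, a variance trend, the replicate block, quantile normalization, median centring, a mean log2 value of at least 6, averaged probe sets, unnamed probe sets included, a fold minimum of 0.5 (log2), and each array left out.

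The members and lists were chosen with earlier results of these data known. Named are all members, called genes and the 4 largest differences of the wider and output lists, and called markers. Markers and output genes named without a limma call, the promoter search, the windows printed, the background of bright genes, the interval bounds and the genes plotted singly were chosen after values were seen. Promoters are RefSeq sequences matched by symbol.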

Additional observations from a re-analysis of the deposited data

How the results depend on the processing

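The count of 1 member higher and 0 lower became 2 and 0 with SAM and among genes with a mean log2 value of at least 6 (*Ikbke* added), 6 and 2 with an intensity trend and robust variance, and 0 and 0 with the replicate block, after quantile normalization and with all rows tested as probe sets. It was 0 and 0 without any 1 array, and 1 and 0 with median centring, averaged probe sets and a fold minimum. At an unadjusted p below 0.05, limma gave 8 higher and 2 lower members. The counts of 86 higher and 27 lower genes were 177 and 19 with SAM, 379 and 290 with the trend, 207 and 150 with a mean log2 value of at least 6, 21 and 2 with all rows as probe sets, and 22 to 43 and 4 to 7 with 1 array left out. The median difference of the members, 0.0982, was 0.0849 after quantile normalization and 0.0666 to 0.127 with 1 array left out. The sign of 7 members near 0 turned in some fits without 1 array, whose differences ran over -0.0281 to 0.15 (*Tirap*), -0.0385 to 0.0562 (*Ticam1*), -0.0156 to 0.0035 (*Irak1*), -0.121 to 0.0524 (*Map3k7*), -0.0713 to 0.0175 (*Rela*), -0.14 to 0.0275 (*Nfkbie*) and -0.0771 to 0.0088 (*Tnf*), and *Irak1* was also at 0.0009 with median centring. The cause of these changes was not tested. Replicate numbers were not seen to pair the arrays (correlation of deviations -0.05 across 19946 genes), and the replicate block gave 98 higher and 31 lower genes and, among the members, changed only the call of *Cd14*. With 2 arrays a genotype, differences in genes as dim as *Il6* may go unseen.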

Other observations

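Some NF-kB output genes differed by as much as *Cd14* without passing in limma, and they were named after their values were seen. *Ccl5*, a T cell chemokine, read 8.29 and 7.99 on the Trem-2-/- arrays and 7.35 and 7.04 on the WT arrays (difference 0.94, 95% CI 0.60 to 1.28, limma adjusted p = 0.0693). *Il1b* read 9.34 and 9.49 on the Trem-2-/- arrays and 8.63 and 8.86 on the WT arrays (difference 0.67, 95% CI 0.41 to 0.93, limma adjusted p = 0.0798). SAM called both. *Cxcl2*, a neutrophil chemokine, read 9.11 and 9.43 on the Trem-2-/- arrays and 8.75 and 8.65 on the WT arrays (difference 0.57, 95% CI 0.28 to 0.85, limma adjusted p = 0.155). *Cxcl1*, its close relative, read 8.23 and 8.35 on the Trem-2-/- arrays and 7.98 and 7.33 on the WT arrays, which lay far apart (difference 0.64, 95% CI 0.14 to 1.13, limma adjusted p = 0.336).

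Among AM markers *Car4* rose, averaging 6.85 in Trem-2-/- AM and 5.95 in WT AM (limma adjusted p = 0.0353), and 9 did not pass. Without 1 array it passed in 1 of 4 fits. The other AM markers past an unadjusted p of 0.05 were *Cidec* (0.21) and *Marco* (0.18), higher, and *Krt79* (-0.35) and *Siglecf* (-0.21), lower. Of 6 B cell, 8 T or NK cell and 6 dendritic cell markers limma and SAM called 0, with 0, 1 and 1 past an unadjusted p of 0.05.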
